A study of Homo sapiens with 2 samples.

Results

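The genes described here are 10 members of the cAMP and salt-inducible kinase pathway: SIK1, SIK2, SIK3, CREM, CREB1, CRTC2, PDE4B, PDE4D, RGS2 and PER1. They were taken by gene symbol from tables of 24462 distinct symbols, and each was found on a single row. The tables come from 2 libraries of A549, an established cell line from a human lung adenocarcinoma, and ask how expression differs when the adhesion G protein-coupled receptor ADGRF4 is silenced. One library is from cells transfected with control siRNAs (short duplex RNAs that direct the cell to degrade a matching messenger) and the other from cells transfected with ADGRF4 siRNAs. Both groups were transfected, so neither shows untreated cells, and the siRNA sequences, dose and time after transfection were not stated in the labels. Messenger RNA was read from its 3′ end, so a gene's count does not scale with transcript length.

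Each group holds 1 library, so no test between the treatments is possible. Every difference below is between those 2 libraries, and each 95% interval covers counting error only. The control library held 10396047 counts and the ADGRF4 siRNA library 9825320. ADGRF4 itself had 3 and 1 counts, too few to check the labels or to show whether it was silenced. All 6 epithelial markers were compared, and on the scale given below 3 were at least 1.5-fold lower in the ADGRF4 siRNA library and 2 higher (median log2 ratio -0.21). The cadherin CDH1 was 4.34-fold lower (3.78 to 5.01), EPCAM 1.68-fold lower (1.12 to 2.56) and the keratin KRT8 1.56-fold lower (1.51 to 1.60). KRT7 was 2.66-fold higher (2.59 to 2.74) and KRT18, with the most counts (58990 and 79367), 1.58-fold higher (1.56 to 1.60). The 6 blood cell markers summed to 58 and 42 counts, of which CD14 had 45 and 30, and the 8 endothelial and fibroblast markers to 50 and 60, of which COL1A1 had 50 and 45. Levels are CPM, that is counts scaled to a common library size, after adjustment by TMM, the trimmed mean of log ratios between the libraries.

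Cyclic AMP is made by adenylyl cyclases downstream of receptors coupled to Gs, and is broken down by phosphodiesterases such as PDE4B and PDE4D. It activates protein kinase A, which phosphorylates CREB1 and also inhibits the salt-inducible kinases SIK1, SIK2 and SIK3. When active, these kinases hold the CREB coactivator CRTC2 and class IIa histone deacetylases in the cytoplasm; when they are inhibited, CRTC proteins enter the nucleus and genes with cAMP response elements are transcribed. SIK1, PDE4B, PDE4D, RGS2, PER1 and a short repressor form of CREM called ICER are themselves cAMP-inducible and act back on the pathway or mark its activity. The SIKs need LKB1 for full activity, and A549 cells lack functional LKB1.

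The cAMP response element is the palindrome TGACGTCA, and its half-site is TGACG. On the other strand the half-site reads CGTCA. RefSeq promoter windows on GRCh38.p14, running from 250 bases before to 50 bases after an annotated start, were searched on both strands for both motifs; the palindrome also counts as a half-site. There were 27 windows for 9 of the genes, and CRTC2 had no entry. A half-site lay in 8 of the 27 (29.6%), belonging to SIK1, SIK2, SIK3, CREM, PDE4D and RGS2, against 24.6% of all 35116 windows. CREM had it in 3 of 7 windows and PDE4D in 1 of 8, and the share of all windows was not matched for GC content. The palindrome lay in 2 windows, both of CREM and covering the same site, against 1.85% of all windows. The windows of PDE4B, CREB1 and PER1 held neither motif. A match describes the letters only, and bases outside the windows were not searched, so a gene without a match may hold the motif elsewhere.

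The stretches below are shown because they let the 3 SIK paralogues be compared with each other and with RGS2 and the internal CREM start. Each runs 5′ to 3′ on the gene's strand, with the motif in capitals. The SIK and RGS2 stretches end at the base before the start; the CREM stretch runs to 20 bases past it.
SIK1, chr21:43427132-43427381, minus strand: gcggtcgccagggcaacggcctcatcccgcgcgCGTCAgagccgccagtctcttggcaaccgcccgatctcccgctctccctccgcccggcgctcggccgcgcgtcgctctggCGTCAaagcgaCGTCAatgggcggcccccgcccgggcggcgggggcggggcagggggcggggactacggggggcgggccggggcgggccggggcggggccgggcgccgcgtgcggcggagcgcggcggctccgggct
SIK2, chr11:111602199-111602448, plus strand: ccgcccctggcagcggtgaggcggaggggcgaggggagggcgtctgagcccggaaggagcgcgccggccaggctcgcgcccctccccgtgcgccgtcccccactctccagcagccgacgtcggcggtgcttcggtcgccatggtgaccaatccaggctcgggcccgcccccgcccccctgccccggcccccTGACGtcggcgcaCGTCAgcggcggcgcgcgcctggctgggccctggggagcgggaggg
SIK3, chr11:117098429-117098678, minus strand: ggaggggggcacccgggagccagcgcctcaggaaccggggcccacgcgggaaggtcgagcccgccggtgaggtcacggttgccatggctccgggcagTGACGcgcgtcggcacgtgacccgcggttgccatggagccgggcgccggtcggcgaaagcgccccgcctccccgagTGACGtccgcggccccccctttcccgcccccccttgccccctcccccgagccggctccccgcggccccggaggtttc
RGS2, chr1:192808789-192809038, plus strand: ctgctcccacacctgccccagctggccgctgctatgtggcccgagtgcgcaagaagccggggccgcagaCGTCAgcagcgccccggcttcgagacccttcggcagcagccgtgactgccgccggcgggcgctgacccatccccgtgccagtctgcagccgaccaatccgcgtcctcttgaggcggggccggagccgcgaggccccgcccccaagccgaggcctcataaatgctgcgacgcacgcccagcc
CREM internal start, chr10:35195600-35195869, plus strand: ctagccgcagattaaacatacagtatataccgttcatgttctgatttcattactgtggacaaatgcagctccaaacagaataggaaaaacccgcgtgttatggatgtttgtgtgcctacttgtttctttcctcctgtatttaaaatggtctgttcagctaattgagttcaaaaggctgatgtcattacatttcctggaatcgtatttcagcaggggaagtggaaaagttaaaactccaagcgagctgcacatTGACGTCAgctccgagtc
SIK1 held 3 half-sites, whose first bases lie 217, 137 and 126 bases before the start. SIK2 held 2 (59 and 46 bases before), SIK3 held 2 (153 and 77 bases before) and RGS2 held 1 (181 bases before). The GC content of the stretches was 82.4% for SIK1, 80% for SIK2, 78% for SIK3 and 72.8% for RGS2, but 41.48% at the internal CREM start. There the palindrome begins 3 bases into the transcript, and it lies upstream of another start annotated nearby. None of the SIK or RGS2 stretches held the palindrome.

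Of the pathway's inducible genes, SIK1 was 6.44-fold lower in the ADGRF4 siRNA library, PDE4B 2.15-fold, RGS2 1.998-fold and PDE4D 1.38-fold, each with an interval that left out no difference. The constitutive members SIK2, SIK3 and CREB1 and the inducible genes CREM and PER1 had intervals that included no difference. Of the 10 genes, 9 averaged 30 or more counts across the libraries and were compared. On the scale of log2(CPM + 1), 3 of these 9 were at least 1.5-fold lower, against 22.3% of all 11771 compared symbols, and 0 were at least 1.5-fold higher, against 21.1%; nothing particular to these genes is read from that count. At a 2-fold limit, 2 were lower (SIK1 and PDE4B), against 10.4% of all compared symbols, and 0 higher, against 7.84%. The median log2 ratio of the 9 genes was -0.29 (all compared symbols, -0.016), and 8 of the 9 lay below 0, against 51.0% of all symbols; PER1 also lay below 0 with total-count scaling (-0.13), with upper-quartile scaling (-0.0026) and after the centring on base composition given below, after which 3 of the 8 lay above 0. The SD of their log2 ratios was 0.82, and that of all compared symbols 0.77.

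**Figure D1:**
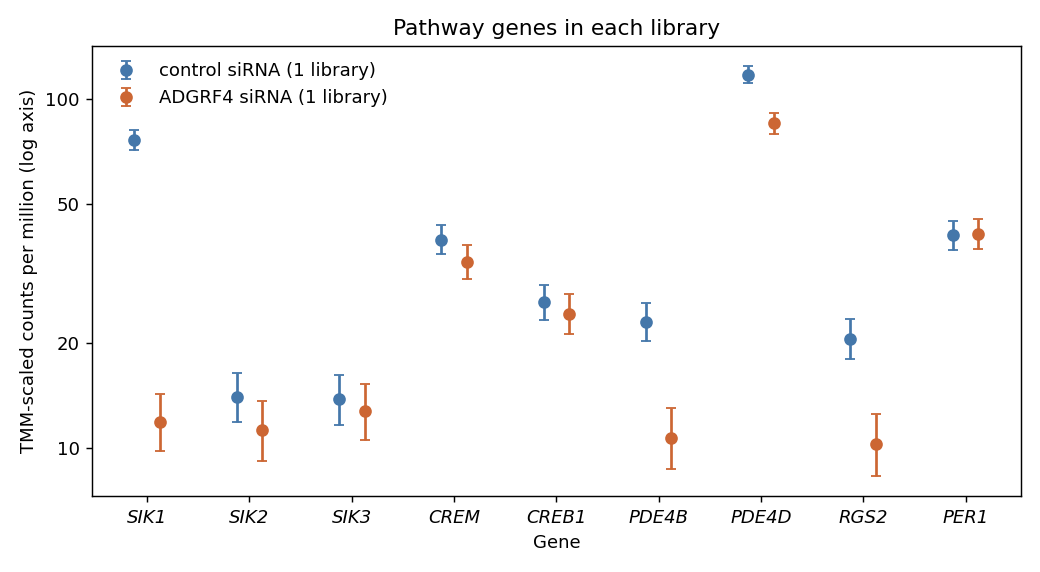
TMM-scaled CPM (log axis) of the 9 compared genes in the control siRNA library (blue) and the ADGRF4 siRNA library (orange), 1 library each, with exact Poisson 95% intervals. SIK1 shows the widest gap, from 76.6 to 11.9 CPM; CRTC2, at 5 and 0 counts, is not drawn.

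Among the salt-inducible kinases the widest difference was in SIK1. SIK1, the inducible member of the family, had 838 counts in the control library (76.6 CPM, 95% interval 71.5 to 81.9) and 111 in the ADGRF4 siRNA library (11.9 CPM, 9.79 to 14.3). The counting intervals were far apart, and the ratio of scaled CPM was 6.44-fold lower (5.27 to 7.92). Of the 11771 compared symbols, 52 had a lower log2 ratio than the -2.59 of SIK1. SIK2, a kinase studied in fat and melanocytes, had 153 and 105 counts (13.98 and 11.3 CPM), 1.24-fold lower with an interval from 0.963 to 1.61. SIK3, which acts in skeletal growth and sleep, had 151 and 119 counts (13.8 and 12.8 CPM), 1.08-fold lower (0.845 to 1.39). The levels of SIK2 and SIK3 overlapped between the libraries, and their intervals exclude a loss as large as that of SIK1. SIK1 made up 73.4% of the reads assigned to the 3 kinases in the control library (exact binomial interval 70.7 to 75.9) and 33.1% in the ADGRF4 siRNA library (28.1 to 38.5). The summed SIK counts were 1142 and 335, 2.91-fold lower (2.57 to 3.29), while SIK2 and SIK3 together were 1.16-fold lower (0.970 to 1.38).

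SIK1 has a near-identical copy, SIK1B, in GENCODE 29 (GRCh38; the processing notes name hg19): 94.3% of the 30-base runs of its longest transcript also occur there. The count tables hold no row of that name, so the SIK1 count is uncertain to the extent that reads fit both. Exons of SIK2 are overlapped on the other strand by PPP2R1B, which had 194 and 197 counts.

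CREB1, the transcription factor phosphorylated by protein kinase A, was read 287 times in the control and 227 times in the ADGRF4 siRNA library (26.2 and 24.3 CPM). Its ratio was 1.08-fold lower (0.903 to 1.29), an interval that included no difference. CREM, which encodes both activators and the repressor ICER, had 434 and 320 counts (39.6 and 34.3 CPM), 1.16-fold lower with an interval from 0.998 to 1.34 that just included no difference. GENCODE 29 lists 34 coding CREM transcripts with 12 separate 3′ ends, counting ends within 100 bases as 1, and the table pools them under 1 symbol. ICER therefore cannot be told apart from the other CREM forms. Exons of CREM are overlapped on the other strand by AL392046.1, and those of CREB1 by AC009226.1. CRTC2, the coactivator that the SIKs phosphorylate, was read 5 times in control cells (1.62 to 11.7 by the Poisson interval) and 0 times in the ADGRF4 siRNA library (up to 3.69). It was under the count limit, and no difference was detectable at this depth.

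The phosphodiesterases differed in size. PDE4B, which is cAMP-inducible, had 252 counts in the control (23.0 CPM, 20.3 to 26.0) and 100 in the ADGRF4 siRNA library (10.7 CPM, 8.72 to 13.03). The intervals did not overlap, and PDE4B was 2.15-fold lower (1.70 to 2.74). PDE4D, another degrader of cAMP with many promoters, had 1289 counts (118 CPM, 111 to 124) and 798 counts (85.5 CPM, 79.7 to 91.7). PDE4D was 1.38-fold lower (1.26 to 1.51), beyond counting error but short of the 1.5-fold limit on the log2(CPM + 1) scale. PDE4B took 16.4% of the reads of these 2 genes in the control library (14.5 to 18.3) and 11.1% in the ADGRF4 siRNA library (9.15 to 13.4). Both pool several forms: PDE4B has 10 coding transcripts and PDE4D 16. Exons of PDE4D are overlapped on the other strand by PART1, which had 4 and 0 counts.

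RGS2, which speeds the shut-off of Gq signalling and also dampens cAMP production, had 225 counts in the control (20.6 CPM, 18.0 to 23.4) and 96 in the ADGRF4 siRNA library (10.3 CPM, 8.33 to 12.6). The libraries did not overlap, and RGS2 was 1.998-fold lower (1.57 to 2.56). PER1, a repressor of the circadian clock that cAMP and glucocorticoids induce, had 446 and 384 counts (40.7 and 41.1 CPM). Its ratio was 1.01 (0.879 to 1.16), and the libraries overlapped. Exons of PER1 are overlapped on the same strand by AC129492.3 and MIR6883, so strand could not separate reads in the shared bases. Among the compared symbols, 9.66% had a lower log2 ratio than PDE4B, 11.6% a lower one than RGS2 and 51.7% a lower one than PER1.

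**Figure D2:**
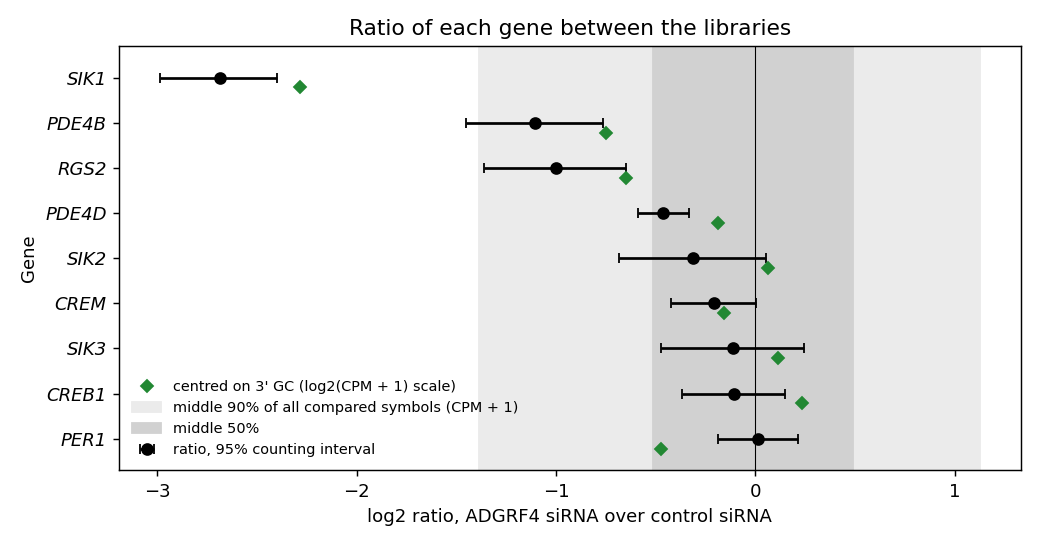
Ratio of scaled CPM without a pseudocount (black points, log2 axis, exact 95% counting interval) for each compared gene, with the middle 50% and 90% of the log2(CPM + 1) ratios of all compared symbols in grey and the ratio centred on 3′ GC content as green diamonds. SIK1 lies outside the middle 90% (-1.38 to 1.13), and PDE4B and RGS2 lie inside it.

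Base composition at the 3′ end moved with the ratio across the whole table, and its values stand here beside the genes. In the 1113 symbols with the lowest GC content in the last 300 transcript bases (median 27%), the median log2 ratio was -0.36, and in the 1113 with the highest (median 60.7%) it was 0.78. The 9 genes had a median of 33.3% GC, against 40.3% for all compared symbols. SIK1 (30.7% GC) had the lowest log2 ratio of the 557 symbols in its GC bin, and its ratio centred on that bin was -2.28. After centring, PDE4B (32% GC) was at -0.75 and RGS2 (34% GC) at -0.65 on the log2 scale, both still past 1.5-fold, and PDE4D at -0.19. SIK2, SIK3 and CREB1 then lay above 0, at 0.064, 0.12 and 0.23, and PER1, whose 3′ end is GC-rich (54.7%), moved from 0.014 to -0.47. CREM moved from -0.20 to -0.16. With centring, 3 of the 9 genes were at least 1.5-fold lower, against 19.1% of the 11139 symbols with a GC value, and 0 higher, against 15.2%. The counts of the lists below stand against these shares where they are centred, and otherwise against the 22.3% and 21.1% of all compared symbols. Its part in the differences was not tested. Where the lists below are given after centring, genes named only for their centred value were chosen after the values were seen.

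**Figure D3:**
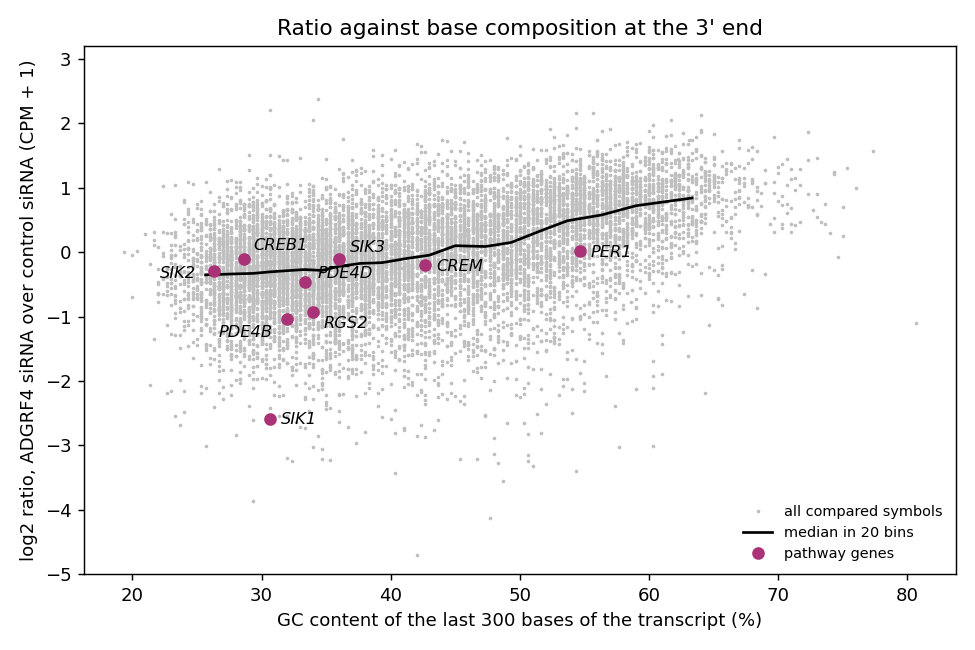
log2 ratio of scaled CPM + 1 (vertical axis) against the GC content of the last 300 transcript bases (horizontal axis, %) for all compared symbols with a value (grey), the median in 20 GC bins (line) and the 9 compared genes (purple). SIK1 lies at -2.59 where the median of its bin is -0.31, and PER1 lies at 0.014 where that median is 0.49.

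Upstream of cAMP, the compared receptors and cyclases went different ways. Of 20 receptors coupled to Gs, 5 were compared. Of these, 3 passed 1.5-fold upwards and 1 downwards. The adenosine receptor ADORA2B had 107 and 38 counts, which is 2.40-fold lower (1.64 to 3.57). The melanocortin receptor MC1R was 2.92-fold higher (2.19 to 3.94), the VIP receptor VIPR1 2.46-fold higher (1.41 to 4.43) and the histamine receptor HRH2 1.62-fold higher (1.15 to 2.28). After centring on 3′ GC, HRH2 was at -0.11 and the list held 2 higher and 1 lower. Of 10 adenylyl cyclases, 5 were compared, with 3 lower and 0 higher (median log2 ratio -0.76), against 22.3% and 21.1% of all compared symbols. The count of lower cyclases was 4 with total-count or upper-quartile scaling and 2 after centring, against 19.1% of symbols. ADCY6 had 130 and 20 counts, which is 5.54-fold lower (3.44 to 9.37). ADCY9 was 3.89-fold lower (2.50 to 6.26), from 114 to 25 counts, and ADCY1 1.77-fold lower (1.35 to 2.33), while ADCY3, with the most counts of the list, had 178 and 188. ADCY6 and ADCY9 remained lower after centring, at -2.52 and -1.36, and ADCY1 was then at -0.43, short of 1.5-fold.

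Protein kinase A genes went both ways, with 2 of 9 compared at least 1.5-fold lower and 2 higher (median log2 ratio 0.11). PRKAR1A, a regulatory subunit, had 2142 and 1017 counts, which is 1.80-fold lower (1.67 to 1.94), and the catalytic subunit PRKACB was 1.76-fold lower (1.33 to 2.36). The kinase inhibitor PKIG was 2.09-fold higher (1.77 to 2.48) and the regulatory subunit PRKAR1B 2.06-fold higher (1.68 to 2.53). Centring on 3′ GC left 0 lower and 2 higher, with PRKAR1A at -0.55, PRKACB at -0.44, PRKAR1B at 0.15, PKIG at 1.13 and the regulatory subunit PRKAR2A at 0.75. None of the 11 compared A-kinase anchoring proteins, which tether the kinase, passed 1.5-fold in either direction; AKAP12, the most abundant of them, had 17895 and 14754 counts. The list of other cAMP effectors also holds the GTPases RAP1A and RAP1B, and of its 7 genes 3 were compared and 2 were lower. RAPGEF3 (3 and 3 counts) and RAPGEF4 (7 and 14) were under the count limit. The small GTPase RAP1A was 3.39-fold lower (2.40 to 4.88) and the cAMP-binding POPDC3 2.76-fold lower (1.58 to 5.07), whereas RAP1B had 611 and 681 counts (1.31-fold higher, 1.17 to 1.46). After centring, RAP1B was also past 1.5-fold, at 0.65.

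PDE4B stood lower than the phosphodiesterases outside the studied set, of which 1 of 9 compared was at least 1.5-fold lower and 0 higher (median log2 ratio -0.0037). PDE8B was 1.61-fold lower (1.22 to 2.14), and PDE7B, with the most counts, had 689 and 857. After centring, PDE8B was at -0.46, and 0 were lower and 1 higher (PDE7B, 0.84).

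Most kinases around the SIKs lay within 1.5-fold of their control level. All 4 compared genes of the LKB1 complex lay within 1.5-fold, from -0.28 to 0.36 on the log2 scale; STRADA, its pseudokinase, had 277 and 278 counts. After centring on 3′ GC, 1 of the 4 was at least 1.5-fold higher (STRADB, 0.59). Of the 11 other AMPK-related kinases, all compared, 2 were lower and 1 higher (median log2 ratio 0.11). PRKAA1, a catalytic subunit of AMPK, had 269 and 79 counts, which is 2.90-fold lower (2.25 to 3.78). The other AMPK catalytic subunit PRKAA2 was 1.57-fold lower (1.36 to 1.81) and the microtubule-affinity kinase MARK4 1.79-fold higher (1.57 to 2.04), but neither passed 1.5-fold after centring (-0.34 and 0.24). The centred list still held 2 lower and 1 higher, so genes other than PRKAA2 and MARK4 then passed the limit. NUAK2, with the most counts, had 1209 and 1351.

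Among SIK substrates and their partners, class IIa deacetylases and MEF2 factors gave 2 lower and 2 higher of 6 compared. HDAC7, a deacetylase, had 4262 and 5814 counts, which is 1.60-fold higher (1.54 to 1.66). MEF2D, a transcription factor held in check by these deacetylases, was 3.39-fold lower (2.76 to 4.18), and MEF2A 1.59-fold lower (1.29 to 1.96), while MEF2B was 2.93-fold higher (1.66 to 5.38) on 18 and 45 counts. Centring left 1 lower and 0 higher, with MEF2D at -1.64 and HDAC7 at 0.53.

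The relatives of CRTC2 differed in direction. CRTC3 had 428 and 177 counts, which is 2.06-fold lower (1.73 to 2.47), while CRTC1 had 32 and 91 counts, which is 3.34-fold higher (2.21 to 5.16). Of the reads assigned to the 3 CRTC genes, CRTC1 took 6.88% in the control library (4.75 to 9.58) and 34.0% in the ADGRF4 siRNA library (28.3 to 39.97). The ends of CRTC1 are GC-rich (60%), and its centred log2 ratio was 0.73, against -0.91 for CRTC3. The list of other CREB family and coactivator genes also holds calcineurin subunits, and of its 9 genes, all compared, 2 were lower and 1 higher. The calcineurin subunit PPP3CA, which dephosphorylates CRTC proteins, was 1.63-fold lower (1.49 to 1.78) and at -0.41 after centring. With centring, 1 gene of the list was lower (CRTC3) and 2 higher (CRTC1 and the calcineurin subunit PPP3CC, the latter at 0.75).

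Downstream, cAMP-inducible targets of CREB other than the studied genes were lower or near their control level. Of 22 compared, 11 were at least 1.5-fold lower and 0 higher (median log2 ratio -0.51), against 22.3% and 21.1% of all compared symbols; after centring on 3′ GC, 9 were lower, against 19.1% of symbols, 0 were higher, against 15.2%, and the median was -0.18. This list was written with earlier results of these data known, so its direction is not independent evidence. NR4A1, an orphan nuclear receptor, had 1208 and 144 counts, which is 7.15-fold lower (6.01 to 8.56). GADD45B, a stress sensor, was 3.68-fold lower (3.19 to 4.26). LINC00473, a noncoding RNA known as a CRTC target in LKB1-deficient lung tumours, had 128 and 27 counts, which is 4.04-fold lower (2.65 to 6.37). EGR1, with a log2 ratio of 0.19, had 10280 and 10020 counts.

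RGS2 and PER1 were set beside their own families. Of the 6 other RGS genes compared, 1 was lower and 0 higher (median log2 ratio -0.36); RGS19 had 89 and 34 counts, which is 2.23-fold lower (1.49 to 3.42), and RGS10, with the most counts, had 378 and 235. After centring, 3 of these 6 were lower (RGS19 at -0.81, RGS14 at -0.92 and RGS3 at -0.77). Of 17 other clock genes compared, 5 were lower and 0 higher (median log2 ratio 0.10). After centring 2 were lower (BHLHE40 and NPAS2) and 3 higher (CSNK1E at 0.75, CRY1 at 0.64 and RORA at 0.60). BHLHE40, a clock repressor, was 3.31-fold lower (2.78 to 3.97), NPAS2, a partner of BMAL1, 1.99-fold lower (1.56 to 2.55), and the nuclear receptor NR1D2 1.69-fold lower (1.37 to 2.08). CSNK1D, a kinase acting on PER proteins, had 964 and 1066 counts. Glucocorticoids also induce PER1, and of 12 compared genes of that response, 6 were lower and 1 higher (median log2 ratio -0.55), against 22.3% and 21.1% of all compared symbols. Centring left 5 lower and 0 higher, against 19.1% and 15.2%. The phosphatase DUSP1, also on the CREB target list, was 2.19-fold lower (2.03 to 2.37), the NF-kB inhibitor NFKBIA 2.12-fold lower (1.99 to 2.26) and ERRFI1, a feedback inhibitor of EGFR, 2.11-fold lower (1.86 to 2.40). ANGPTL4, a lipase inhibitor, was 1.55-fold higher (1.43 to 1.69) and at -0.09 after centring, and the metallothionein MT2A, with the most counts, had 4246 and 3846.

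**Figure D4:**
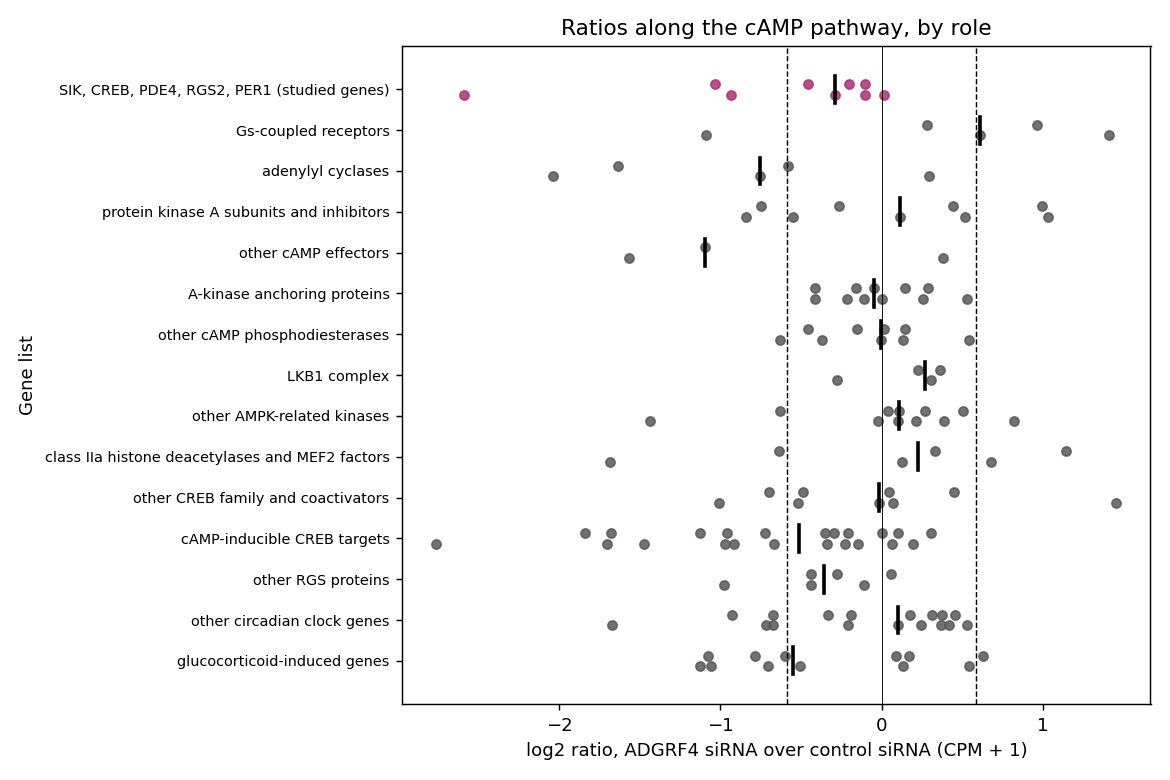
log2 ratios of scaled CPM + 1 for the compared genes of each list, 1 point a gene, with the list's median as a thick bar and dashed lines at 1.5-fold in each direction. The studied genes (purple) run from SIK1 at -2.59 to PER1 at 0.014, and 0 of the 22 CREB targets lie past the upper line.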

How the data were processed

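The files deposited by the authors hold raw, whole-number counts for each symbol from 2 QuantSeq 3′ libraries, made from Trizol RNA per the labels' protocols. The tools named in the submitters' processing notes are Bowtie2 and edgeR, and the build is hg19. Versions, roles, annotation, strand use and multi-mapping: not given in the sources used here. Rows of a symbol were summed. Library sizes were scaled by TMM in edgeR 4.0.16 (R 4.3.3), and the 11771 symbols averaging 30 or more counts were compared by log2 of CPM + 1. Folds are plain ratios of scaled CPM, with exact Clopper-Pearson 95% intervals; levels have exact Poisson intervals. Amplified reads carry no molecular identifiers, so these intervals cover counting error only. With 1 library a group, a gene is called by size alone, at 1.5-fold on the log2(CPM + 1) scale.

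The members and lists were chosen with earlier results of these data known. All 10 members are named, and in each other list up to 3 of the lowest and 3 of the highest genes past 1.5-fold and the one with the most counts. For base composition, the final 300 bases of each symbol's longest GENCODE 29 transcript (GRCh38) were used. A GC content was found for 94.6% of compared symbols, and ratios were centred on the median of 20 bins. Alternatives were total-count, upper-quartile and DESeq2 1.42.0 scaling, pseudocounts of 0.1 and 5, and count limits of 10, 100 and none. Others were a 2-fold limit, thinning, and the largest value among a symbol's rows in each library in place of their sum. Python 3.11.15 was used, and the ratios and their counting intervals were tested on simulated Poisson counts. That simulation used known library totals, so it did not cover TMM, the centring on base composition or variation between libraries. Promoter sequences are from RefSeq on GRCh38.p14; no coordinates of counted reads are given.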

Additional observations from a re-analysis of the deposited data

How the results depend on the processing

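The count of 3 genes at least 1.5-fold lower (SIK1, PDE4B and RGS2) became 4 with total-count scaling, which shifts every log2 ratio by -0.15 before the pseudocount and brings PDE4D to -0.60 (27.7% of all compared symbols were then lower and 16.1% higher, against 22.3% and 21.1%), and 2 with a 2-fold limit (SIK1 and PDE4B). It was 3 under the other 10 alternatives, and the count of higher genes was 0 under all 12. Not all of these could differ. Each gene is on a single row, so the handling of repeated rows could not change its counts. The same 9 genes passed the count limits of 10 and 100, and a count limit does not enter a gene's ratio. The median log2 ratio of -0.29 was -0.43 with total-count scaling, where the median of all compared symbols was -0.16, and -0.19 after centring on 3′ GC. Across the 11 alternatives that give a ratio, SIK1 ranged from -2.73 to -2.27, PDE4B from -1.18 to -0.75 and RGS2 from -1.07 to -0.65. PER1 ranged from -0.47 to 0.018 and lay below 0 under 3 of them. Total-count scaling moved the other phosphodiesterases from 1 to 2 lower and the other CREB family, coactivator and calcineurin genes from 2 to 4 lower. It moved the deacetylases and MEF2 factors from 2 to 1 higher and the Gs-coupled receptors from 3 to 2 higher. The adenylyl cyclases went from 3 to 4 lower and the protein kinase A genes from 2 to 3 lower. The glucocorticoid-induced genes went from 6 to 7 lower and from 1 to 0 higher. CRTC2 enters the comparison only with no count limit. No paired analysis was possible because each group has 1 library, and no library could be left out. The counting intervals of SIK2, SIK3, CREB1, CREM and PER1 include no difference.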
